A study of Homo sapiens with 24 samples.

Results

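The EGF receptor family and its ligands were followed in HCT-116 cells, a colorectal cancer cell line, under butyrate and under induction of a Wnt inhibitor. The group was set by name as 10 genes: the receptors EGFR, ERBB2, ERBB3 and ERBB4, and the ligands AREG, EREG, TGFA, HBEGF, BTC and NRG1. These genes had 19 probes of the 34127 non-control probes on the array. Of these probes, 12 were bright enough to be tested, among 18984 tested in all, and they covered 9 of the 10 genes.

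The cells were a stable clone carrying a Tet repressor and a tetracycline-inducible, FLAG-tagged DN-Tcf4, a form of the transcription factor Tcf4 that cannot bind beta-catenin and so blocks Wnt-driven transcription. All 4 treatments used this clone, so both vectors were present in the controls as well. Cells were left untreated (Ctl), or received 5 mM sodium butyrate (NaB), 4 μg/ml doxycycline (Doxy), or both agents (DoxyNaB), with a treatment time of 17.5 hr in the labels. By the methods, doxycycline was started first and butyrate was then added for that time. The labels number 6 experiments, each with 1 array for every treatment, which makes 24 arrays. The p-values of the fit rest on the spread left after each experiment's own level is removed. That spread is shared over the 4 treatments and moderated across probes. The SD given after ± is instead that of the differences within the 6 experiments. Results from a single clone do not show how other clones or other colorectal lines respond.

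The 4 receptors are tyrosine kinases of the cell surface that pair with each other when a ligand binds. AREG, EREG, TGFA, HBEGF and BTC bind EGFR, some of them also ERBB4, while NRG1 binds ERBB3 and ERBB4. ERBB2 has no known ligand of its own and acts as a partner. The ligands are made as membrane proteins and are released by proteases, and the receptors then act through the RAS to MAP kinase and the PI3 kinase pathways. In colorectal tumours, AREG and EREG are known as markers of dependence on EGFR.

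All levels below are the log2 of an array's processed spot signal relative to the 75th percentile of that array, so that 0 is that percentile and each unit is a 2-fold step. Levels of different probes cannot be set against each other. The 75th percentile lay between 380.2 and 1322.7 signal units, and between 52.7% and 88.1% of the non-control spots were well above background. NaB/Ctl is the butyrate response without doxycycline, and DoxyNaB/Doxy the butyrate response with it. Both were called at a fold over 2 with an adjusted p under 0.01, and the other comparisons at an adjusted p under 0.01 alone. Epithelial identity was checked with a marker list: 7 of 11 colon epithelial genes were tested, and each of the 7 had a probe well above background on every array with an unflagged spot. The lists for immune, fibroblast and endothelial cells had 1 of 3, 1 of 4 and 2 of 3 genes tested, and CD14, COL1A1 and VWF among them rose in NaB/Ctl. PTPRC, CD3E, COL1A2, DCN, LUM and PECAM1 were too dim to be tested, as were KRT20, VIL1, CEACAM5 and LGALS4 of the epithelial list. CDH5 of the endothelial list was tested and was not called, at 0.45 in NaB/Ctl with an adjusted p of 0.18. VWF was well above background on 3 of 6 Ctl, 4 of 6 Doxy and 6 of 6 arrays of each butyrate treatment. EPCAM of the epithelial list was called lower, at -1.45 in NaB/Ctl and -1.50 in DoxyNaB/Doxy, with adjusted p of 3.62e-05 and 2.65e-05. Summed over a list, linear levels relative to the 75th percentile ran from 210 to 300 in Ctl and from 275 to 502 in NaB for the epithelial genes, and from 217 to 298 in Doxy and from 254 to 373 in DoxyNaB. For the immune genes they ran from 0.0865 to 0.342 in Ctl, 0.181 to 0.636 in NaB, 0.0717 to 0.312 in Doxy and 0.161 to 0.82 in DoxyNaB. The fibroblast sums were 0.329 to 0.49, 0.178 to 1.04, 0.231 to 0.499 and 0.698 to 1.26, and the endothelial sums 0.0866 to 0.191, 0.179 to 0.717, 0.105 to 0.241 and 0.194 to 1.03, in the same order of treatments. The part of these genes in the results was not tested.

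Induction of DN-Tcf4 was read from the TCF7L2 probes, TCF7L2 being the gene for Tcf4, although these probes may also read the cell's own transcript. Probe A_23_P127013 was 0.30 ± 0.66 (SD, n = 6) higher in Doxy than in Ctl, with an adjusted p of 0.861, but 4.46 ± 0.52 higher in DoxyNaB than in NaB, a 21.9-fold difference with an adjusted p of 1.77e-06. It was also 1.90 higher in NaB than in Ctl, with an adjusted p of 0.000468. Probe A_23_P389588 was 2.96 higher in DoxyNaB than in NaB, with an adjusted p of 3.65e-05, and differed by -0.17 in Doxy/Ctl, with an adjusted p of 0.921. The remaining probe, A_33_P3377304, was lower in DoxyNaB than in NaB, at -1.25 ± 0.65, with an adjusted p of 0.00568. Of the comparisons between doxycycline and its absence, the TCF7L2 probes thus passed the threshold in DoxyNaB/NaB and not in Doxy/Ctl.

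Butyrate lowered the EGFR ligand EREG by more than 10-fold, with or without doxycycline. With the scaling used here, the ligand HBEGF rose 2.15-fold without doxycycline, while its 1.78-fold rise with doxycycline was not called. The size of the rise depends on the scaling. Without doxycycline, it was 0.36 on the log2 scale with scaling to the median and 0.31 with quantile normalization. The NaB/Ctl call of HBEGF was lost in 4 of 22 alternatives, and the sign changed in 0. On the probe counted for each gene, the receptors EGFR, ERBB2 and ERBB3 were lower under butyrate in both comparisons. In DoxyNaB/Doxy they were 3.64, 2.05 and 2.11-fold lower, and in NaB/Ctl 1.90, 1.70 and 1.74-fold. The difference of these responses was called for EGFR and not for ERBB2 or ERBB3. A second tested ERBB3 probe changed by -0.10 in NaB/Ctl and 0.04 in DoxyNaB/Doxy and was not called. In experiments 2 to 4 alone, ERBB2 changed by -0.18 in NaB/Ctl, with an adjusted p of 0.636. The DoxyNaB/Doxy call of ERBB2 was lost in 9 of 22 alternatives. EGFR fell further with doxycycline on this scale, but with normexp background correction the difference turned to -0.16. AREG was 0.47 higher under butyrate without doxycycline, or -0.28 with scaling to the median, and was lower with doxycycline. In bulk RNA, fewer cells with a transcript and less of it per cell cannot be told apart. Counted by 1 probe a gene, 1 member rose and 1 fell in NaB/Ctl, against a background of 21% of all genes called higher and 11.5% called lower. In DoxyNaB/Doxy, 0 members rose and 4 of 9 fell, against 18.7% and 12.5% of all genes. The median log2 change over the 9 members was -0.77 in NaB/Ctl and -0.80 in DoxyNaB/Doxy, beside 0.17 and 0.11 over all 15193 genes tested.

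Counting every adjusted p under 0.01 at any fold, 3 members were higher and 4 lower in NaB/Ctl, where 40.6% and 29% of all genes were. In DoxyNaB/Doxy 1 was higher and 5 were lower, where 38.1% and 30.3% of all genes were. With 9 genes, nothing is read from these counts.

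**Figure D1:**
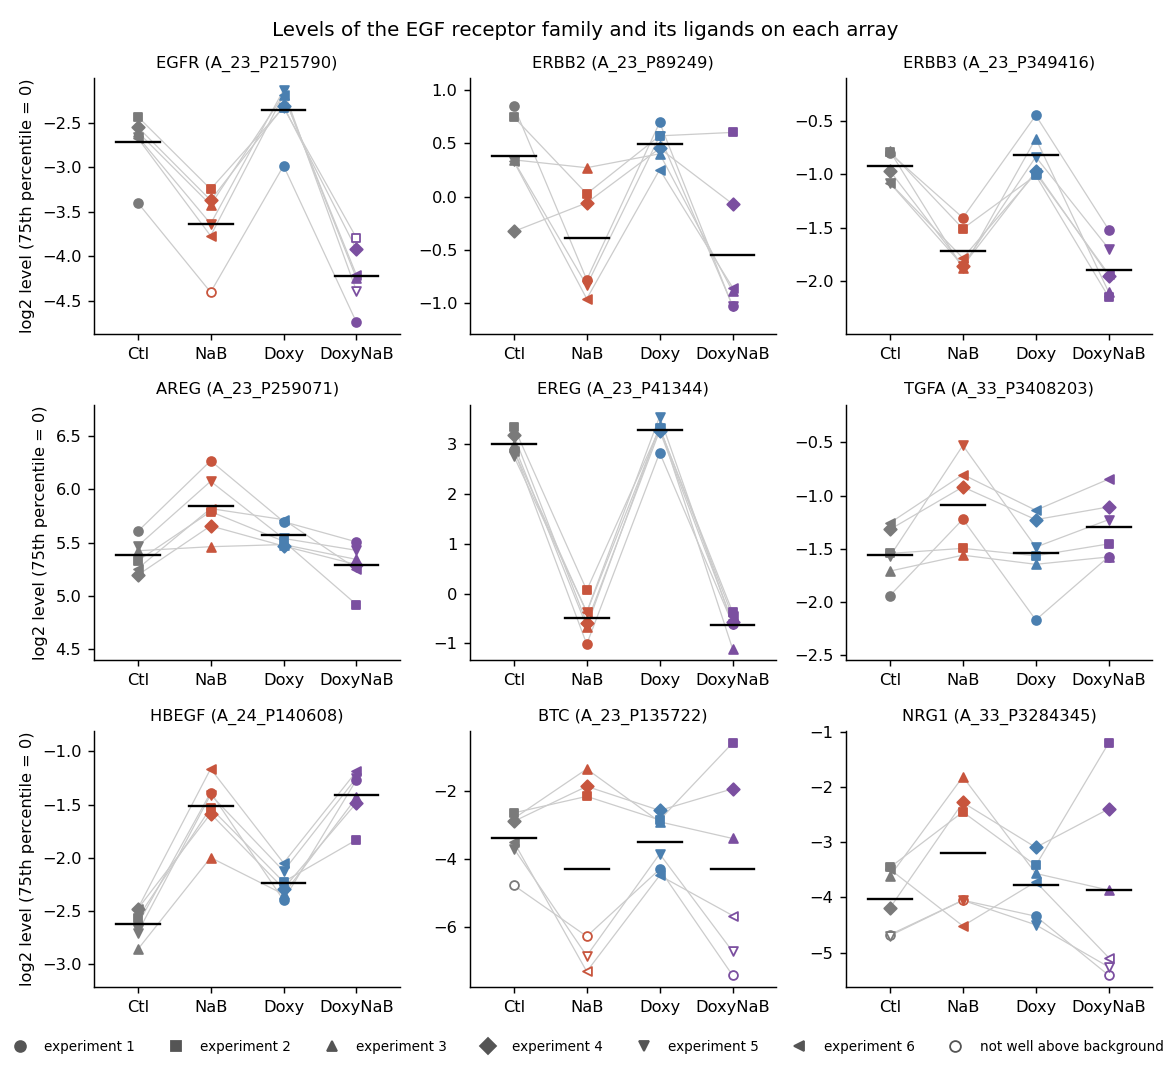
Log2 level relative to the 75th percentile of the array (vertical axes, each with its own range) in the 4 treatments, for the tested probe of highest mean level of each of 9 genes. Each marker is 1 array, grey lines join the arrays of an experiment, black bars are means over 6 arrays, and open markers were not well above background. The EREG bars of the butyrate treatments lie more than 3 log2 units below those without butyrate, while BTC and NRG1 scatter widely in both butyrate treatments.

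Epiregulin, encoded by EREG, gave the largest change among the 12 tested probes of the group. Its single probe lies on the plus strand at chr4:75472873-75472932 of NCBI36, the build of the array files, and was well above background on all 24 arrays. The Ctl arrays had a lowest, median and highest level of 2.76, 2.94 and 3.35, and the Doxy arrays 2.83, 3.32 and 3.56. With butyrate, the NaB arrays had -1.02, -0.48 and 0.07, and the DoxyNaB arrays -1.11, -0.59 and -0.37. Every butyrate array lay below every array without butyrate.

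In NaB/Ctl, EREG changed by -3.50 ± 0.32 (SD, n = 6) on the log2 scale, which is 11.3-fold with an adjusted p of 6.28e-14. In DoxyNaB/Doxy it was lower still, at -3.90 ± 0.37, which is 14.9-fold with an adjusted p of 1.56e-14. The 2 responses were not shown to differ: the difference was 0.40, with a 95% interval of 0.02 to 0.78 and an adjusted p of 0.371. Within the experiments scanned together, NaB/Ctl was -3.57 in experiments 2 to 4 and -3.19 in experiments 5 and 6. Doxycycline without butyrate left EREG 0.27 ± 0.33 higher, with an adjusted p of 0.392.

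Amphiregulin, encoded by AREG next to EREG, did not share the large fall of its neighbour. On this scale AREG changed by 0.47 in NaB/Ctl and by -0.28 in DoxyNaB/Doxy. Its main probe, A_23_P259071 at chr4:75539382-75539441 on the plus strand, had a lowest, median and highest level of 5.20, 5.38 and 5.61 in Ctl. In NaB the values were 5.46, 5.81 and 6.27, in Doxy 5.47, 5.53 and 5.72, and in DoxyNaB 4.92, 5.32 and 5.51. The groups overlapped in every comparison, so the differences are those within experiments. Older annotations hold a near-identical copy of this gene, AREGB, whose transcripts these probes may not tell apart.

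AREG was higher in NaB than in Ctl in 6 of 6 experiments, by 0.47 ± 0.22, a 1.38-fold difference with an adjusted p of 0.000131. With doxycycline the sign turned: AREG was lower in DoxyNaB than in Doxy in 6 of 6 experiments, at -0.28 ± 0.20, with an adjusted p of 0.00929. The direction of the NaB/Ctl change depends on the scale, since scaling to the median gave -0.28 while the median of all probes moved to -0.58 and AREG stayed 0.30 above that median. The difference of the 2 responses was 0.75 ± 0.32 with an adjusted p of 0.00218, and it was positive in 6 of 6 experiments, from 0.18 in experiment 3 to 1.06 in experiment 2. Between the butyrate treatments, AREG was lower in DoxyNaB than in NaB, at -0.56 ± 0.28, with an adjusted p of 0.00076. Leaving out any of experiments 1, 2, 4, 5 or 6 raised the adjusted p of the difference to between 0.0118 and 0.0258. With scaling to the median the difference was 0.56, with an adjusted p of 0.983, and without the block it was 0.75, with an adjusted p of 0.0295. A second AREG probe, A_33_P3419190, was flagged as uneven on 11 of 24 arrays and kept only 1 NaB array, so it gives no check.

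The genes for EPGN, EREG and AREG lie side by side on the plus strand of chromosome 4, with BTC further on and on the minus strand. The probe of EPGN, which encodes the EGFR ligand epigen, was well above background on 0 of 24 arrays. EREG and AREG therefore form the measured pair of this cluster. Their promoters are printed because these neighbouring ligands differed in the size of their change under butyrate. The sequences are those of RefSeq on GRCh38.p14 and run from 250 bases before the start to 50 bases after it, with EREG at chr4:74364895-74365194 and AREG at chr4:74444886-74445185. HBEGF, at chr5:140346554-140346853 on the minus strand, is added as the ligand that rose. Capitals mark matches on either strand. The letters searched were TATAAA for the core promoter box of that name and GGGCGG for the GC box. Further motifs were TGACGTCA for the cAMP response element, then TGANTCA for the AP-1 site, and for the Tcf site CTTTGAT, whose last letter may also be A.
EREG: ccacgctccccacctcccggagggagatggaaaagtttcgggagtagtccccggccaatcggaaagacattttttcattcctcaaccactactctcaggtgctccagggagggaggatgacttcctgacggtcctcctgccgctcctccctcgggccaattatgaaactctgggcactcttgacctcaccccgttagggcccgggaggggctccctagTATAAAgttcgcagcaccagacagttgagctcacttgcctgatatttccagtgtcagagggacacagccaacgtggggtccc
AREG: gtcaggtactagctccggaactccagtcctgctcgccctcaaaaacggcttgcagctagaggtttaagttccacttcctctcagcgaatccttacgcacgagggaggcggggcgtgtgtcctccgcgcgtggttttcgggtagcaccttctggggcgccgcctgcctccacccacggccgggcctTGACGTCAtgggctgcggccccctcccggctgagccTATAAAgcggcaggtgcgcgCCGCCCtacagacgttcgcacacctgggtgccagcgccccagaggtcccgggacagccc
HBEGF: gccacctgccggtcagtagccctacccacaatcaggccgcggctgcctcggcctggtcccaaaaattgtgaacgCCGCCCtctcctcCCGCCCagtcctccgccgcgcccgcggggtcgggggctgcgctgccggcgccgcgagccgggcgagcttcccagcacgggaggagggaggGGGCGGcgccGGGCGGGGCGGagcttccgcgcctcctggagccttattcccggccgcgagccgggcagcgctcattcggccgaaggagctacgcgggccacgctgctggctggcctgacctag

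Counted from the start, with bases before it negative, the EREG window holds 1 TATAAA at -32. The AREG window holds 1 TATAAA at -29, 1 TGACGTCA at -65, and 1 GC box at -9. The HBEGF window holds 5 GC boxes, the outermost at -176 and the innermost at -58, and no TATAAA. Its last 2 GC boxes overlap by 1 base. The marked runs of EREG and AREG thus both hold a core promoter box close to the start, and that of HBEGF does not. The 3 windows hold 0 matches to the Tcf or AP-1 letters. Of the 35116 promoter windows of the table, 11.53% hold TATAAA, 44.954% a GC box, 1.848% TGACGTCA, 7.709% the AP-1 letters and 6.86% the Tcf letters. NRG1 was not looked up. Of the other genes of the group, 8 had a window, and no window of these held the Tcf letters. These matches describe the letters in the windows and say nothing about binding.

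HBEGF, which encodes heparin-binding EGF-like growth factor, rose under butyrate. Its probe at chr5:139693236-139693295 on the minus strand of NCBI36 was well above background on all 24 arrays. The lowest, median and highest levels were -2.86, -2.60 and -2.48 in Ctl, -2.00, -1.47 and -1.16 in NaB, -2.40, -2.26 and -2.05 in Doxy, and -1.83, -1.35 and -1.19 in DoxyNaB. Every butyrate array was above every array of its own control, and every Doxy array above every Ctl array. The rise was 1.11 ± 0.20 in NaB/Ctl, 2.15-fold with an adjusted p of 8.45e-09. In DoxyNaB/Doxy it was 0.83 ± 0.24, 1.78-fold with an adjusted p of 4.09e-07, which is under the 2-fold threshold. The difference of the 2 responses, 0.28 with a 95% interval of -0.01 to 0.57, had an adjusted p of 0.445. Without butyrate, doxycycline left HBEGF 0.38 ± 0.16 higher in 6 of 6 experiments, with an adjusted p of 0.067. Scaling to the median lowered the NaB/Ctl rise to 0.36, with an adjusted p of 0.207. Quantile normalization gave 0.31, with an adjusted p of 0.495, and normexp background correction gave 0.57, with an adjusted p of 0.0123. Relative to the median of all probes, the NaB/Ctl rise was 0.94 under the scaling used here and under scaling to the median. On that measure it was 0.50 with normexp and 0.40 with quantile normalization. In experiments 2 to 4 alone the NaB/Ctl rise was 0.93, under 2-fold. The DoxyNaB/Doxy rise was 0.27 with scaling to the median, 0.16 with quantile normalization and 0.71 with normexp.

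TGFA, which encodes transforming growth factor alpha, had 2 tested probes that moved in opposite directions. Probe A_33_P3408203, which counts for the gene above, at chr2:70536980-70537039 lies in the part of the gene that encodes the membrane span. Probe A_23_P377291 at chr2:70528827-70528886 lies nearer the 3′ end of this minus-strand gene. The sequence of the first probe is printed because the result for TGFA depends on which probe is read. It is in lower case with no part marked.
A_33_P3408203: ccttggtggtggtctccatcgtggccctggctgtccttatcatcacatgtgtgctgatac

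On the membrane-span probe, the lowest, median and highest levels were -1.94, -1.56 and -1.26 in Ctl and -1.56, -1.07 and -0.53 in NaB, with overlap between them. They were -2.17, -1.52 and -1.14 in Doxy and -1.58, -1.34 and -0.84 in DoxyNaB, again with overlap. The change was 0.47 ± 0.37 in NaB/Ctl, with an adjusted p of 0.000888, and 0.24 ± 0.19 in DoxyNaB/Doxy, with an adjusted p of 0.0564. Scaling to the median turned both signs, to -0.28 and -0.32, and quantile normalization to -0.07 and -0.27. On the 3′ probe, the levels were -1.91, -1.04 and -0.96 in Ctl and -2.86, -2.23 and -1.81 in NaB, and -1.75, -0.77 and -0.50 in Doxy and -2.59, -2.18 and -1.84 in DoxyNaB. The NaB and Ctl arrays overlapped through the Ctl array of experiment 1, and the DoxyNaB arrays lay below the Doxy arrays. Here TGFA fell by 1.12 ± 0.28 in NaB/Ctl, 2.18-fold with an adjusted p of 1.3e-07, and by 1.32 ± 0.33 in DoxyNaB/Doxy, 2.49-fold with an adjusted p of 1.55e-08. The 2 probes thus gave no common direction for the gene, and which transcript forms each one reads was not tested.

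**Figure D2:**
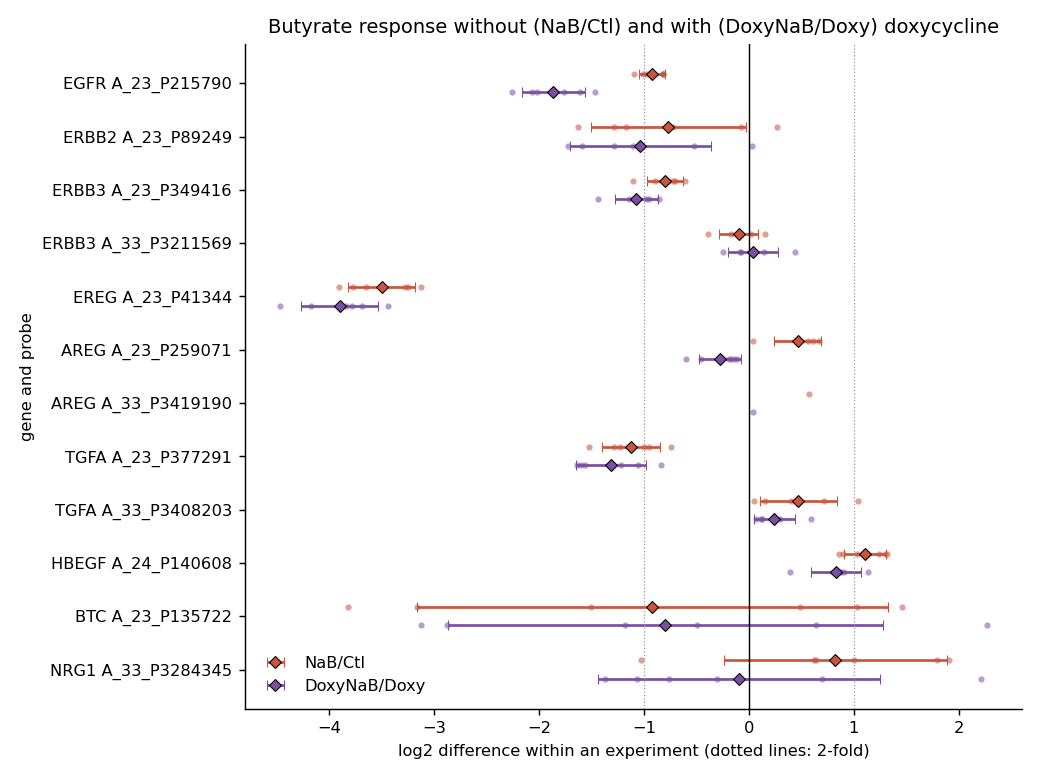
Log2 difference within each experiment (horizontal axis) for the 12 tested probes of the group, for NaB/Ctl (red) and DoxyNaB/Doxy (purple). Small points are experiments, and diamonds with bars are the mean and SD over 6 experiments, with no bar where 1 experiment remained. The means of the 2 TGFA probes lie on opposite sides of 0, and so do those of the 2 responses of the main AREG probe, A_23_P259071. The other AREG probe has 1 experiment.

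Among the receptors, EGFR fell under butyrate in both comparisons. Its full-length probe, A_23_P215790 at chr7:55242335-55242394, was dim: it was well above background on all Ctl and Doxy arrays, on 5 of 6 NaB arrays and on 4 of 6 DoxyNaB arrays. The lowest, median and highest levels were -3.40, -2.63 and -2.43 in Ctl and -4.40, -3.53 and -3.25 in NaB. They were -2.98, -2.25 and -2.13 in Doxy and -4.74, -4.23 and -3.80 in DoxyNaB. The DoxyNaB arrays all lay below the Doxy arrays, whereas the NaB and Ctl arrays overlapped through the Ctl array of experiment 1.

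EGFR fell in 6 of 6 experiments in both comparisons. NaB/Ctl was -0.92 ± 0.12, 1.90-fold with an adjusted p of 2.4e-08. It passed 2-fold with quantile normalization, at -2.09, with scaling to the median, at -1.67, and in experiments 5 and 6 alone, at -1.04. DoxyNaB/Doxy was -1.86 ± 0.30, 3.64-fold with an adjusted p of 1.63e-12. The difference of the responses was 0.94 ± 0.26, with an adjusted p of 0.000206, and lay between 0.65 and 1.28 in the 6 experiments. On its own, EGFR was 0.36 ± 0.16 higher in Doxy than in Ctl, with an adjusted p of 0.0526, and lower in DoxyNaB than in NaB, at -0.58 ± 0.18, with an adjusted p of 0.000399.

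For the comparisons of doxycycline, the background was low. In DoxyNaB/NaB, 2 of 9 members, EGFR and AREG, were called lower and 0 higher, against 2.03% and 0.691% of all genes. In the difference of the responses, the same 2 genes were called positive and 0 negative, against 1.11% and 0.244%. In Doxy/Ctl, limma called 0 of 9 members, against 0.461% of all genes higher and 0.0921% lower. There, 4 of 9 members had an unadjusted limma p under 0.05, all of them higher, where 2020 of all 15193 genes did in either direction. AREG and EREG were just under it, at 0.0485 and 0.0491. In the methods' t-test, EGFR and HBEGF passed the study's own cutoff before adjustment, and 0 of 9 members did after it. Nothing is read from these counts about the group. These comparisons share arrays with the butyrate responses, so they are not separate evidence.

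The EGFR result depends on how dim spots are corrected. With normexp background correction, which adds an offset of 50 signal units, the DoxyNaB/Doxy change was -0.45 with an adjusted p of 0.0746, and the difference of the responses turned to -0.16 with an adjusted p of 0.787. The median processed signal of EGFR was 129 units in Ctl and 35.9 in DoxyNaB. The difference stayed positive under quantile normalization, scaling to the median and a fit without the block, at 0.45, 0.75 and 0.94, with adjusted p of 0.904, 0.914 and 0.218. With experiments 2 to 4 only, the difference was 0.89, and with experiments 5 and 6 only it was 1.10. The adjusted p was 0.15 and 0.114 in these smaller fits. A pair of probes for short EGFR transcripts were not tested, with 7 and 14 of 24 arrays well above background.

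**Figure D3:**
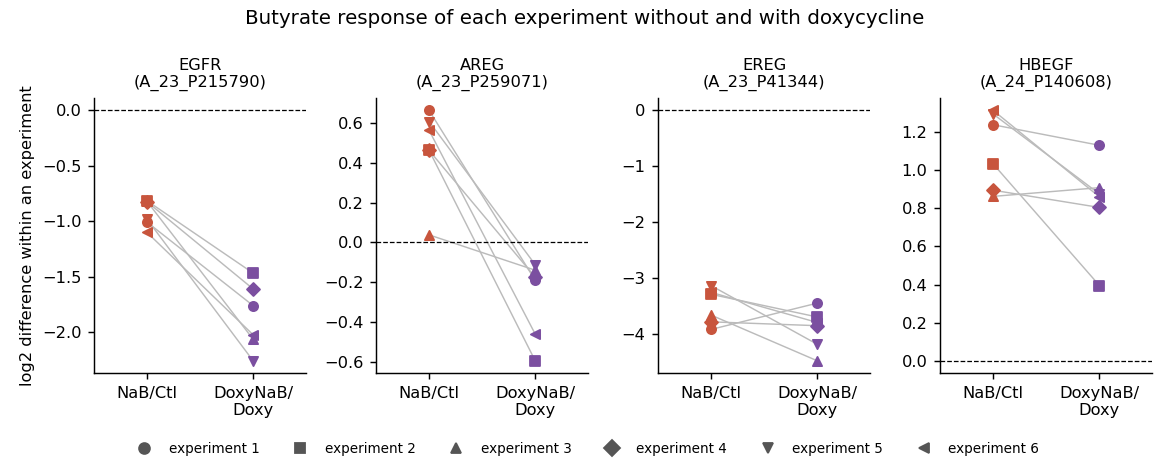
Log2 difference within each experiment (vertical axes, each with its own range) for NaB/Ctl and DoxyNaB/Doxy, with grey lines joining the responses of 1 experiment and dashed lines at 0. EGFR and AREG fall from left to right in 6 of 6 experiments, while EREG and HBEGF do so in 5 of 6.

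ERBB2, the partner receptor, was read by a probe at chr17:35138355-35138414 that was well above background on all arrays. The lowest, median and highest levels were -0.33, 0.34 and 0.85 in Ctl, -0.96, -0.42 and 0.27 in NaB, 0.25, 0.51 and 0.70 in Doxy, and -1.03, -0.87 and 0.60 in DoxyNaB. The groups overlapped, with butyrate arrays at both high and low values. The change was -0.77 ± 0.74 in NaB/Ctl, with an adjusted p of 0.00848, and -1.03 ± 0.67 in DoxyNaB/Doxy, 2.05-fold with an adjusted p of 0.000937, each seen in 5 of 6 experiments. Within scans, NaB/Ctl was -0.18 in experiments 2 to 4 (adjusted p = 0.636) and -1.23 in experiments 5 and 6 (adjusted p = 0.000557). DoxyNaB/Doxy was -0.59 (adjusted p = 0.129) and -1.35 (adjusted p = 0.000397). Without any one of experiments 1, 3 or 5, the DoxyNaB/Doxy change stayed under 2-fold, from -0.98 to -0.90. It was also under 2-fold with normexp, at -0.77, with the slide as block, at -0.88, and fell just short of it with quantile normalization. The methods' paired test gave it a p of 0.0131 before adjustment, which is above the cutoff of 0.01. The difference of its responses was 0.27 ± 0.70, with an adjusted p of 0.833.

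The background of the arrays moved with these values. Negative control spots averaged 48.4 to 79.6 signal units on the 12 arrays without butyrate and 48.8 to 69.1 on 7 butyrate arrays, against 110.9 to 248.9 on the other 5 butyrate arrays, all of experiments 2 to 4. On those 5 arrays ERBB2 lay between -0.07 and 0.60, and on the other 7 between -1.03 and -0.78. HBEGF lay between -2.00 and -1.48 on the 5 arrays and between -1.43 and -1.16 on the other 7. EGFR lay between -3.92 and -3.25 on the 5, with a median of -3.42, and between -4.74 and -3.64 on the 7, with a median of -4.25. Within NaB and within DoxyNaB, every array of high background had a higher EGFR level than every other array of that treatment. The Ctl arrays, none of high background, also split by experiment for EGFR. They lay between -2.60 and -2.43 in experiments 2 to 4 and between -3.40 and -2.65 in the others. The Doxy arrays did not split in this way. EREG overlapped, between -0.66 and 0.07 on the 5 and between -1.11 and -0.37 on the 7. The part of this background in the ERBB2, HBEGF and EGFR changes was not tested.

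ERBB3, the partner of ERBB2 for neuregulins, also had probes that differed. Probe A_23_P349416, at chr12:54782427-54782486, had a lowest, median and highest level of -1.08, -0.88 and -0.78 in Ctl and -1.88, -1.82 and -1.41 in NaB. It had -1.01, -0.90 and -0.45 in Doxy and -2.15, -1.95 and -1.52 in DoxyNaB. Butyrate arrays lay below their controls in both comparisons. The change was -0.80 ± 0.17, 1.74-fold with an adjusted p of 6.39e-07, in NaB/Ctl and -1.08 ± 0.20, 2.11-fold with an adjusted p of 1.32e-08, in DoxyNaB/Doxy. On the 5 butyrate arrays of high background it lay between -2.15 and -1.51, overlapping the other 7. The DoxyNaB/Doxy change was under 2-fold with normexp, at -0.57, with the mean over probes, at -0.52, and in experiments 5 and 6 alone, at -0.91. NaB/Ctl passed 2-fold with quantile normalization, at -1.43, and with scaling to the median, at -1.55. The difference of its responses was 0.27 ± 0.16, positive in 6 of 6 experiments, with an adjusted p of 0.45.

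Probe A_33_P3211569, at chr12:54765484-54765543 and designed to a short ERBB3 transcript, did not pass the threshold under butyrate. Its lowest, median and highest levels were -1.63, -1.37 and -0.89 in Ctl, -1.48, -1.43 and -1.28 in NaB, -1.90, -1.86 and -1.15 in Doxy and -1.93, -1.77 and -1.40 in DoxyNaB, with overlap throughout. Its change was -0.10 ± 0.18, with an adjusted p of 0.308, in NaB/Ctl and 0.04 ± 0.24, with an adjusted p of 0.696, in DoxyNaB/Doxy. In Doxy/Ctl it was lower in 6 of 6 experiments, at -0.42 ± 0.17, with an adjusted p of 0.0225. A further ERBB3 probe was not tested.

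BTC and NRG1, the ligands betacellulin and neuregulin 1, were close to background. BTC was well above background on 5 of 6 Ctl, 6 of 6 Doxy, 3 of 6 NaB and 3 of 6 DoxyNaB arrays. Its level ran from -7.31 to -1.34 in NaB and from -7.42 to -0.57 in DoxyNaB, beside -4.77 to -2.63 in Ctl. The change was -0.92 ± 2.25 in NaB/Ctl, with an adjusted p of 0.238, and -0.80 ± 2.07 in DoxyNaB/Doxy, with an adjusted p of 0.311. On the 5 butyrate arrays of high background BTC lay between -2.14 and -0.57, and on the other 7 between -7.42 and -3.39. BTC was 0.99 higher in NaB than in Ctl in experiments 2 to 4 and changed by -3.49 in experiments 5 and 6. No direction can be given for BTC from these arrays, and the part of the background was not tested.

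NRG1 changed by 0.82 ± 1.06 in NaB/Ctl, with an adjusted p of 0.088, and by -0.10 ± 1.34 in DoxyNaB/Doxy, with an adjusted p of 0.842. It was also higher on arrays of high background, between -2.45 and -1.21 on the 5 butyrate arrays and between -5.41 and -3.87 on the other 7. ERBB4, a receptor for neuregulins and betacellulin, had 2 probes, of which neither was well above background on more than 2 of 6 arrays of any treatment. ERBB4 was not detectable at this brightness, which does not show that its transcript is absent.

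**Figure D4:**
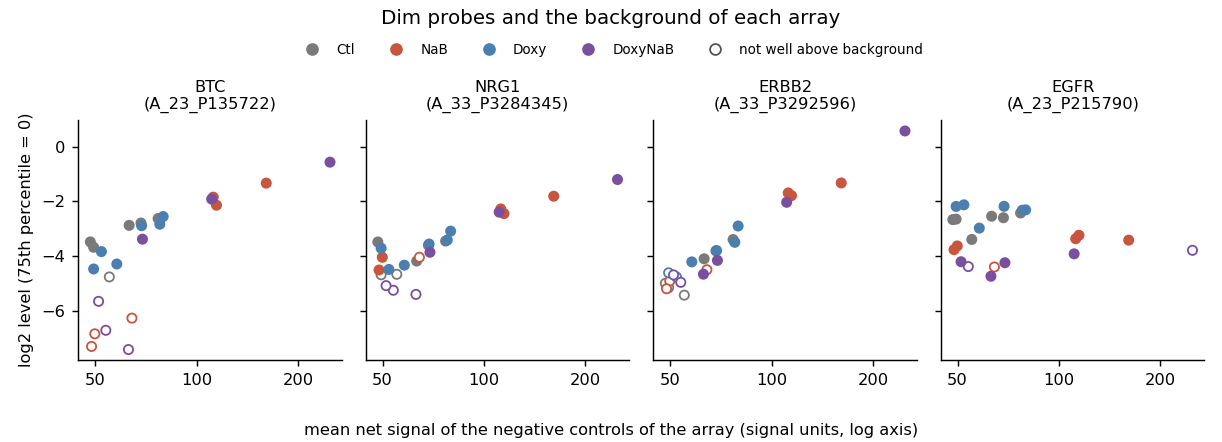
Log2 level of 4 dim probes (vertical axis) against the average signal of negative control spots on the same array (horizontal log axis, net signal units), 1 point an array, coloured by treatment. BTC, NRG1 and the untested ERBB2 probe A_33_P3292596 are highest on the arrays with the brightest negative controls, while EGFR on the 5 butyrate arrays of high background has a median of -3.42, beside -4.25 on the other 7.

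The genes whose levels followed EREG most closely across the 24 arrays, after removal of each experiment's mean, were CHEK1, WDHD1 and CD44, with Pearson's r of 0.996, 0.996 and 0.995 among 12805 probes compared. CHEK1 encodes a checkpoint kinase, WDHD1 a replication protein and CD44 a surface receptor for hyaluronan. For TGFA on its 3′ probe, they were MYO5C, EIF2S2 and GAS6, with r of 0.980, 0.979 and 0.977. CHEK1, WDHD1 and CD44 changed by -1.84, -1.27 and -2.80 in NaB/Ctl. The 24 points share the 4 treatments, the scaling and the arrays, so these values describe a likeness of pattern and carry no test.

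The pathway around the receptors was described with 8 lists of 73 other genes, of which 67 were tested. In NaB/Ctl 12 of the 67 were called higher and 2 lower, and in DoxyNaB/Doxy 14 higher and 3 lower. These shares can be read against the background of 21% and 11.5%, and of 18.7% and 12.5%, given above. The median log2 change over the lists was 0.28 in NaB/Ctl and 0.22 in DoxyNaB/Doxy.

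Among other ErbB ligands, NRG2 and NRG4 were tested and neither reached 2-fold, while EGF, EPGN and NRG3 were not tested. Of the genes for ligand release, TIMP3, an inhibitor of the proteases that shed the ligands, rose by 4.33 ± 0.29 in NaB/Ctl, with an adjusted p of 3.22e-15. The sheddases ADAM10 and ADAM17 changed by 0.29 and 0.56 and were not called. RHBDF1, which guides ADAM17 to the cell surface, rose by 1.21 ± 0.22 in DoxyNaB/Doxy. In NaB/Ctl it was 0.74 ± 0.11 higher, under 2-fold with an adjusted p of 2.97e-07, and the difference of its responses had an adjusted p of 0.0457.

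Of the 11 adaptors tested, GAB2, a docking protein, was the only one called in NaB/Ctl, at 1.43 ± 0.18. The 10 genes of the RAS and MAP kinase list reported here changed by between -0.65 and 0.48 in NaB/Ctl, with a median of 0.03, and had a median of 0.13 in DoxyNaB/Doxy. In the PI3 kinase list, the regulatory subunit PIK3R1 rose by 1.91 ± 0.29, while the kinases AKT1 and AKT2 changed by -0.70 and -0.81 and did not reach 2-fold.

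STAT3, a transcription factor downstream of cytokine and growth factor receptors, rose by 2.17 ± 0.30, and the kinase JAK1 by 1.40 ± 0.25. SRC, a kinase that acts with EGFR, fell by 2.55 ± 0.49 in NaB/Ctl, with an adjusted p of 5.15e-10. Of the 15 inhibitors and turnover genes, LRIG1, a membrane protein that promotes loss of the receptors, rose by 1.71 ± 0.15, and CBLB, a ubiquitin ligase, by 1.67 ± 0.34. Its relative CBLC fell by 1.04 ± 0.60.

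The immediate early genes that EGF induces in many cells formed the list with the highest median, 2.02 in NaB/Ctl. Of its 8 genes, 5 were called higher in NaB/Ctl, where 21% of all genes were. In DoxyNaB/Doxy 5 were called higher and 1 lower, where 18.7% and 12.5% of all genes were. The list was chosen with earlier results of these data known, so its rank is not separate evidence. EGR1, a zinc finger transcription factor, rose by 2.76 ± 0.19 and was well above background on all 24 arrays. Its relatives EGR2 and EGR3 rose by 3.72 ± 0.50 and 4.01 ± 0.91 from dim levels. EGR2 was well above background on 5 of 6 Ctl, 5 of 6 Doxy and 6 of 6 arrays of each butyrate treatment. For EGR3 this held on 3 of 6 Ctl, 3 of 6 Doxy and 6 of 6 arrays of each butyrate treatment. Both reached 6 of 6 arrays only with butyrate, where they were high, and the filter needed 6 of 6 arrays in 1 or more treatments. Their calls, and their part in the list median and count, therefore give no support. The size of the EGR3 rise is also uncertain. IER2 and ATF3 were the others, and PHLDA1, a regulator of apoptosis, fell by 1.18 ± 0.56 in DoxyNaB/Doxy. In the difference of the responses 1 of the 67 genes was called, where 1.11% of all genes were called positive and 0.244% negative. Nothing is read from this count. The gene was IER3, an early gene linked to cell survival, at 0.71 with an adjusted p of 0.00272. It changed by 0.73 ± 0.23 in NaB/Ctl and by 0.02 ± 0.17 in DoxyNaB/Doxy.

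**Figure D5:**
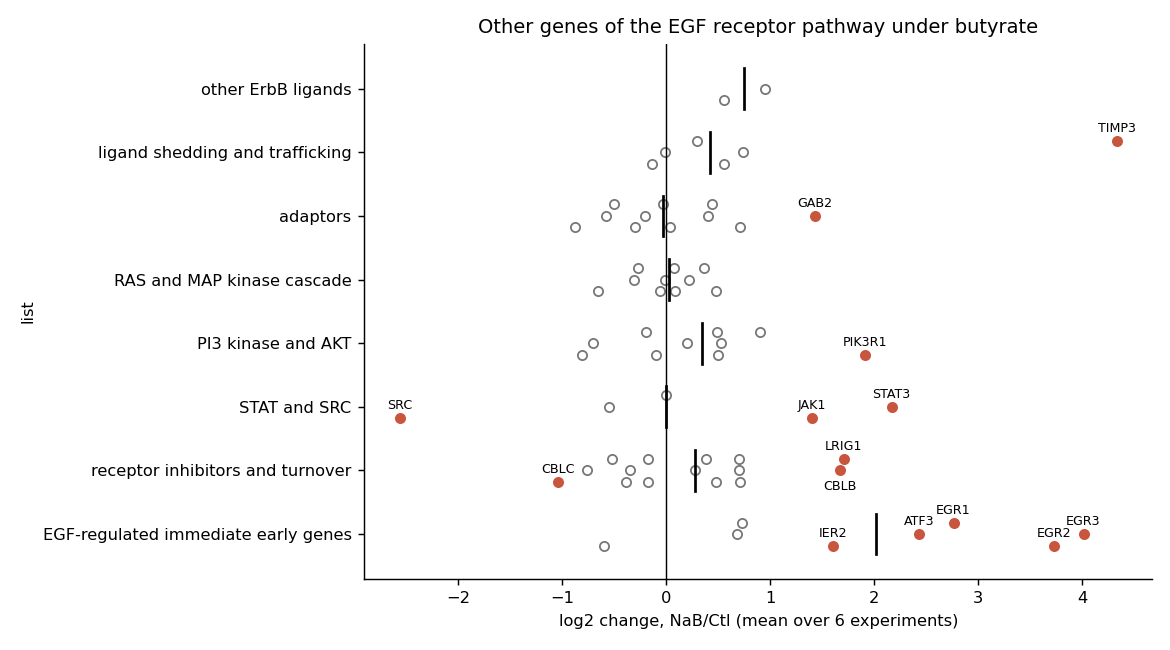
Log2 change in NaB/Ctl (horizontal axis, mean over 6 experiments) of the 67 tested pathway genes, by list. Filled, named points passed a fold over 2 with an adjusted p under 0.01, open points did not, and black bars are list medians, of which that of the immediate early genes, 2.02, is the highest. It includes EGR2 and EGR3, which were well above background on 6 of 6 arrays only in the butyrate treatments.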

How the data were processed

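RNA of 24 samples was labelled in 1 colour and hybridised to Agilent arrays of 44495 spots. The authors deposited spot intensity values from Agilent Feature Extraction 9.5.3.1, background-corrected within each array and not scaled between arrays. The log2 of the processed intensity was taken relative to the 75th percentile of each array over non-control spots. Spots with an outlier flag, 359 to 795 an array, were set aside, and spots of a probe were averaged. Probes entered the fit when well above background (multiplier 13 in the deposited files) on each of the 6 arrays of 1 or more treatments. Positions are on NCBI36, per the file headers and columns, and exons were not annotated here. Groups and experiment numbers came from the labels.

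The study's methods name a paired test at a P under 0.01 and, for butyrate, a fold over 2. Here limma 3.58.1 (lmFit, eBayes, R 4.3.3) was fitted to all 24 arrays with the experiment as a block, since the titles number the experiments and the methods pair them. P-values are two-sided and adjusted by Benjamini-Hochberg over 18984 probes. Same-numbered arrays, centred on treatment, correlated with r from -0.217 to 0.851. Experiment 1 lay on 2 slides scanned on different days, with Ctl and Doxy apart from NaB and DoxyNaB. Slide, scan day and butyrate therefore cannot be told apart within it. A gene was counted by its tested probe of highest mean level. Named were all members, the 3 called genes of each list with the largest NaB/Ctl change, list genes called in the difference of the responses and the 3 genes closest in pattern to EREG and TGFA; ADAM10, ADAM17, RHBDF1, AKT1, AKT2, NRG2, NRG4, IER2, ATF3 and PHLDA1 were added after their values were seen. The members and lists were chosen with earlier results of these data known. Some genes of the pathway and marker lists are not reported here, and the counts leave them out. The fit was tested on simulated data. Signal over background and the number of arrays limit precision. Promoters came from RefSeq on GRCh38.p14.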

Additional observations from a re-analysis of the deposited data

Results flagged for a closer look

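In 6 of 73 groups of a probe and a treatment, 1 array stood apart from the others, where chance alone gives about 1 in 20. For EGFR the Ctl array of experiment 1 was at -3.40 beside -2.67 to -2.43, and the Doxy array of experiment 1 at -2.98 beside -2.33 to -2.13. For the 3′ probe of TGFA, the same 2 arrays were at -1.91 beside -1.06 to -0.96 and at -1.75 beside -0.89 to -0.50. These 2 arrays shared a slide and a scan day. The Doxy array of experiment 1 was also high for the short-transcript probe of ERBB3, at -1.15 beside -1.90 to -1.70. The DoxyNaB array of experiment 3 was low for EREG, at -1.11 beside -0.62 to -0.37.

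The NaB/Ctl response minus the DoxyNaB/Doxy response differed from 0 for EGFR, by 0.94, and for AREG, by 0.75, in the limma fit with the block.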

How the results depend on the processing

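EREG was called lower in both butyrate comparisons under every alternative that was run, with a NaB/Ctl change between -4.25 and -3.19. In NaB/Ctl, where 2 members were called, normexp gave 1, experiments 2 to 4 alone 1, quantile normalization 3 (0 higher and 3 lower), the mean over probes 3 (2 higher and 1 lower), scaling to the median 5 (0 higher and 5 lower) and experiments 5 and 6 alone 5 (1 higher and 4 lower). Over all probes tested, the NaB/Ctl median was 0.17 in the fit used here, -0.09 with quantile normalization and -0.58 with scaling to the median. The share of all genes called under each alternative is not given. The member counts here therefore show only how the calls depend on processing. In DoxyNaB/Doxy, where 4 were called, normexp gave 1. There ERBB2 lost its call in 9 of 22 alternatives and ERBB3 in 3, while EGFR lost it in 1 of 21. In Doxy/Ctl, where 0 were called, the methods' t-test gave 2 before adjustment, and leaving out the NaB array of experiment 3 and the DoxyNaB array of experiment 2 gave 1, HBEGF. In DoxyNaB/NaB, where 2 were called, 0 were called with normexp, scaling to the median, a fit of the compared arrays alone, the adjusted t-test or either set of scans, and 1 with quantile normalization, the filter on all 24 arrays or the mean over probes. In the difference of the responses, where 2 were called, 0 were called with scaling to the median, the adjusted t-test or either set of scans, and 1 with normexp, quantile normalization, the filter on all 24 arrays or the mean over probes. The filter removes EGFR by construction. Leaving out each experiment in turn gave 1 to 2, and 2 only without experiment 3.

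Without the replicate block, 0 members were called in DoxyNaB/NaB and 0 in the difference of the responses, and it changed no other count of calls. The adjusted p of the EGFR difference was then 0.218 and that of AREG 0.0295. Under normexp the EGFR change in DoxyNaB/NaB turned to 0.19, with an adjusted p of 0.661, and its difference of the responses to -0.16, with an adjusted p of 0.787. The offset of 50 signal units is of the order of the EGFR signal. Scaling to the median moved AREG and the membrane-span probe of TGFA across 0 in NaB/Ctl, both to -0.28, while both stayed 0.30 above the median of all probes. The mean over probes moved AREG to 1.82 in NaB/Ctl, where its second probe is missing on most NaB arrays. Keeping the spots with an outlier flag was an alternative chosen after seeing the data, and it changed no count of calls. The other causes were not tested. Dim spots limit what can be said of EGFR, BTC, NRG1 and ERBB4.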
